A study of Rattus norvegicus with 74 samples.

Results

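The mature strands of 3 miRNA hairpins known for their expression in leukocytes were followed in rat kidney from 2 to 104 weeks of age. They were all miRNAs of the array named rno-miR-142, rno-miR-150 or rno-miR-223, with any arm suffix or none, that were detected on at least 1 of the 74 arrays. The rule gave 5 of the 311 miRNAs that any array detected: rno-miR-142-5p and its 3p partner rno-miR-142-3p, rno-miR-150-5p and its partner rno-miR-150-3p, and rno-miR-223-3p. The array also held rno-miR-223-5p, which was detected on 0 of 74 arrays and was therefore left out. RNA of ground whole kidney had been hybridized to single-colour arrays, with 1 animal on each. The animals were untreated F344 rats of both sexes, an inbred strain, aged 2, 5, 6 or 8 weeks or, on the older side, 15, 21, 78 or 104 weeks, and no genetic change separates the 16 groups. Females numbered 4 at 2, 5, 8 and 21 weeks and 5 at 6, 15, 78 and 104 weeks. Males numbered 4 at 8 and 104 weeks and 5 at the other ages.

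In miRNA biogenesis, a hairpin is cut into a duplex whose 5p and 3p strands can each be loaded into an Argonaute protein, and the loaded strand pairs with target mRNAs mainly through its seed. miR-142 is made in cells of the blood lineage in general, miR-223 mainly in neutrophils, monocytes and macrophages, and miR-150 mainly in mature lymphocytes. In an organ such as the kidney their RNA is therefore read as a mark of resident and incoming leukocytes. Ageing F344 rats, males more than females, are known for a chronic progressive nephropathy in which mononuclear cells enter the interstitium.

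The strands are shown because all probes of the array address single strands, and because both arms of miR-142 were measured here. RefSeq sequences on GRCr8 matched 4 of the 6 names of these hairpins. The Mir142 hairpin lies at chr10:73055104-73055190 on the plus strand, and its 5p and 3p arms are in capitals.
Mir142 hairpin: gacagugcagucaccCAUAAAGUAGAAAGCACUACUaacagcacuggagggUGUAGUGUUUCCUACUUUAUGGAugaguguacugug
The mature strands detected in kidney are given next, with the seed, bases 2 to 8, in capitals. miR-223-3p lies at chrX:65151450-65151470 on the plus strand.
rno-miR-142-5p: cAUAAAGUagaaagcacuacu
rno-miR-142-3p: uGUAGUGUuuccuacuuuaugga
rno-miR-223-3p: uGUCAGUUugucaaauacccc
The 3 seeds differ, and none of the 693 mature names of that table shares a seed with these strands, so each stands alone as a family there.

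Levels are given as normalized intensity, the total signal of a miRNA over its 20 spots divided by the 75th percentile of the 311 miRNAs on the same array, so that 1 equals that percentile. Differences are on the log2 scale, with undetected values set to a floor of -5.87. A difference was called where its adjusted p was below 0.05 and it reached 1.5-fold. The 75th percentile ranged from 81.2 to 282.5 signal units and the number of detected miRNAs from 190 to 264 per array. The arrays lay on 10 slides, and ages of 2 to 8 weeks shared no slide with ages of 15 to 104 weeks apart from 1 array of a 15-week female, so the step from 8 to 15 weeks cannot be told apart from slide. Groups follow the scanner output of each sample. In the table of normalized values that the authors also deposited, 69 of 74 columns equalled the array of another sample than the one they name, and with groups taken from that table most of the late differences of these strands were lost or turned.

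**Figure D1:**
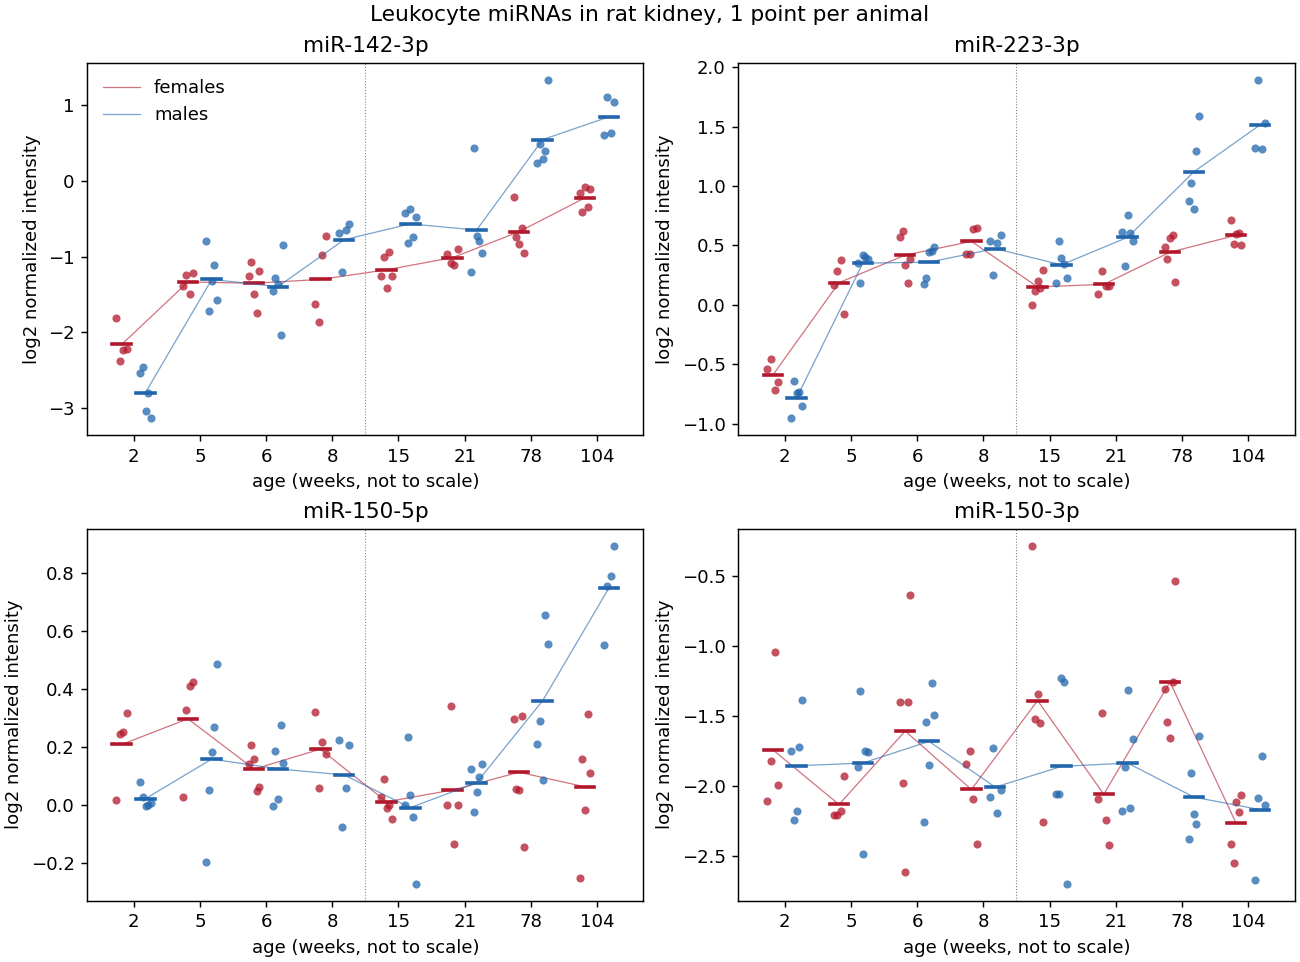
Log2 normalized intensity of the 4 strands detected on all 74 arrays, by age in weeks, with 1 point per animal (females red, males blue) and a thick bar at each group mean; the dotted line parts the ages that lay on different slides. miR-142-3p and miR-223-3p climbed in both sexes from 2 to 5 weeks and again in males after 21 weeks, all males of 104 weeks, and of no other age, lay above the females of their age for miR-150-5p, and miR-150-3p followed neither course. The male step of miR-142-3p from 6 to 8 weeks, 0.62, was not called.

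The effect of age was called for 4 of the 5 strands in males and for 2 in females, against 45.3% and 36.7% of all 311 miRNAs. In males these were miR-142-3p and its 5p strand, miR-150-5p and miR-223-3p (adjusted p = 1.18e-12, 9.18e-06, 7.15e-06 and 1.12e-14 by limma's F test). In females they were miR-142-3p and miR-223-3p (adjusted p = 1.07e-08 and 9.54e-11), while miR-142-5p and miR-150-5p had adjusted p of 0.656 and 0.244. The course over age differed between the sexes, by an interaction of age and sex, for 4 strands against 27.7% of all miRNAs, with adjusted p between 5.04e-08 (miR-223-3p) and 5.29e-05 (miR-150-5p). For miR-142-5p the groups without a detection had an SD of 0 at the floor, against log2 SDs of 1.23 and 1.09 in males of 21 and 78 weeks. Its p-values rest on a spread pooled over such groups. It also met the detection rule mainly through old males, so its calls in these counts are no independent support. miR-150-3p passed none of the 3 tests (adjusted p = 0.0504 in females, 0.737 in males and 0.285 for the interaction). With slide as a fixed block its age effect in females and its interaction were called (adjusted p = 0.0103 and 0.0276). The age effect in females was also called with 2 other floors (adjusted p = 0.0452 and 0.0487) and the percentile over every miRNA of the array (0.0204). So it was with 2 other sets of tested miRNAs (0.0424 and 0.0341), slide as a random block (0.0161), probe 1 alone (0.0261) and without some single arrays. That result is thus borderline.

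miR-142-3p, the 3p strand of the pan-leukocyte hairpin, had its lowest levels at 2 weeks. The 4 females of that age measured 0.286, 0.192, 0.213 and 0.215, and the 5 males 0.173, 0.182, 0.122, 0.143 and 0.114, so that every female lay above every male. This early difference of -0.63 ± 0.23 (SE, males minus females) had an adjusted p of 0.0557 and was not called. It was called in 10 of the 74 fits that each left out 1 array, and at -0.80 with the percentile taken over miRNAs detected on all arrays (adjusted p = 0.008). By 5 weeks the females had reached 0.398 ± 0.0342 (SD, n = 4) and the males 0.417 ± 0.109 (SD, n = 5). The rise from 2 to 5 weeks was 0.82 ± 0.24 in females (adjusted p = 0.0044) and 1.49 ± 0.21 in males (adjusted p = 1.91e-08). Over all miRNAs 8.36% were called as higher at 5 weeks in females and 12.2% in males. Markers of other cells also differed between these ages. The summed tubule level (miR-192-5p, miR-194-5p and miR-204-5p) was 10.6 to 13.1 in females and 8.14 to 9.40 in males of 2 weeks, and 16.1 to 18.1 and 15.7 to 19.4 at 5 weeks. The summed erythroid level was 0.793 to 0.942 and 0.971 to 1.06 at 2 weeks, and 1.44 to 1.92 and 1.61 to 2.68 at 5 weeks. The hepatocyte miRNA miR-122-5p lay at 0.397 to 23.6 in 2-week males and at 0.0774 to 0.107 in 2-week females. The part of these cell types in the early rise and in the 2-week sex difference was not tested.

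Between 5 and 21 weeks no step of miR-142-3p was called, and the group means of females stayed between 0.398 and 0.497. Male means were 0.417 and 0.393 at 5 and 6 weeks, and 0.592, 0.680 and 0.697 at 8, 15 and 21 weeks. The male step from 6 to 8 weeks was 0.62 ± 0.23 (adjusted p = 0.149). It was called with all miRNAs of the array tested (adjusted p = 0.0143). Males of 8 weeks were higher on 3 of 3 slides (0.04 to 0.98), a difference of 0.52 ± 0.24 that was not called (adjusted p = 0.304). Males of 15 weeks, at 0.568 to 0.774, lay above all females of that age, at 0.376 to 0.522. That difference of 0.61 ± 0.21 had an adjusted p of 0.0609 and was not called. It was called at 0.71 and 0.87 with the percentile over miRNAs that all arrays detected or over every miRNA of the array, and at 0.79 after quantile normalization (adjusted p = 0.0262, 0.0049 and 0.00941). The methods' t-test and fits separate for each age also called it (adjusted p = 0.0223 and 0.0195). Of the 21-week males, 4 measured 0.434, 0.604, 0.577 and 0.515, in the range of the females of that age (0.463 to 0.538) or close to it, and replicate 2 stood apart at 1.35.

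From 21 to 78 weeks miR-142-3p rose by 1.20 ± 0.21 (SE) in males (adjusted p = 1.3e-05), a step in which 3.54% of all miRNAs were called as higher. The 5 males of 78 weeks measured 1.18, 1.40, 1.22, 1.31 and 2.52, and the 5 females 0.863, 0.601, 0.559, 0.648 and 0.519. All males lay above all females, and replicate 6 was the highest male by far. At 104 weeks the 4 males measured 1.52, 2.15, 1.55 and 2.06, and the 5 females 0.896, 0.751, 0.946, 0.785 and 0.928, again with no overlap. The sex difference was 1.22 ± 0.21 at 78 weeks (2.33-fold, adjusted p = 1.42e-05) and 1.07 ± 0.23 at 104 weeks (2.10-fold, adjusted p = 0.000209). It held its sign on 5 of 5 slides at 78 weeks and on 4 of 4 at 104 weeks where both sexes shared a slide, with within-slide differences of 0.45 to 2.28 and 0.71 to 1.27.

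Females also gained miR-142-3p late. From 21 to 104 weeks the level rose by 0.79 ± 0.23 in females (1.73-fold, adjusted p = 0.0183) and by 1.495 ± 0.23 in males (2.82-fold, adjusted p = 2.37e-07). The difference between these changes, 0.71 ± 0.32, was not called (adjusted p = 0.124). It was called, at 0.98, without replicate 2 of the 21-week males (adjusted p = 0.0111), and at 1.06 with the percentile over miRNAs detected on all arrays (adjusted p = 0.023). The call in females was lost without replicate 4 or replicate 5 of the 21-week females (adjusted p = 0.0679 and 0.0652), with the percentile over every miRNA of the array (0.72, adjusted p = 0.0597) and with an offset of 50 added to every spot (0.48, adjusted p = 0.212).

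miR-142-5p, the other arm of that hairpin, was at the edge of detection. It was detected on 10 of 74 arrays, of which 9 were of males and none younger than 21 weeks. The detections were 2 of 5 males at 21 weeks (0.0159 and 0.116), 3 of 5 males at 78 weeks (0.0442, 0.0289 and 0.104), 1 of 5 females at 104 weeks (0.0299) and 4 of 4 males at 104 weeks (0.0794, 0.110, 0.0977 and 0.134). The highest values at 21 and 78 weeks belonged to the 2 animals that were highest for miR-142-3p. Slide 2 held 4 of the 10 detections on its 7 arrays, and the part of slide in detection was not tested.

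On the floored scale, males exceeded females by 0.95 ± 0.28 at 78 weeks (adjusted p = 0.0107) and by 2.43 ± 0.30 at 104 weeks (adjusted p = 5.06e-09), and males gained 1.65 ± 0.30 from 78 to 104 weeks (adjusted p = 0.00013). In that last step 0.643% of all miRNAs were called as higher. These sizes depend on the floor, since an undetected array has no value of its own. The p-values rest on a spread pooled with groups at the floor, whose SD was 0. At 78 weeks the difference was 0.53 and not called without replicate 6 of the males (adjusted p = 0.156), and fits separate for each age did not call it either (adjusted p = 0.238). A correction that adds an offset of 50 to every spot brought the difference at 104 weeks to -0.0011, where the 2 probes of miR-142-5p had signals of 2.27 to 12.99 on the arrays that detected it.

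The signals of its 2 probes before the detection call show how the rise approached the limit. On 64 arrays without detection, the probe medians were 0.731 and 1.29 signal units, while the array medians of all probes of never detected miRNAs lay between -0.806 and -0.0598. Divided by the 75th percentile, probe 1 lay at -0.0144 to -0.00015 in males of 2 weeks and at 0.00368 to 0.0121 in males of 15 weeks. In females probe 1 reached 0.0132 to 0.0221 at 104 weeks, above the 0.00465 to 0.0122 of 78-week females. On probe 2 these females overlapped, at 0.0154 to 0.0219 and at 0.00769 to 0.0158. Only 1 of the 5 arrays of 104-week females carried a detection call. Males of 104 weeks lay at 0.0361 to 0.0654 on probe 1 and at 0.0433 to 0.0686 on probe 2, above every female.

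**Figure D2:**
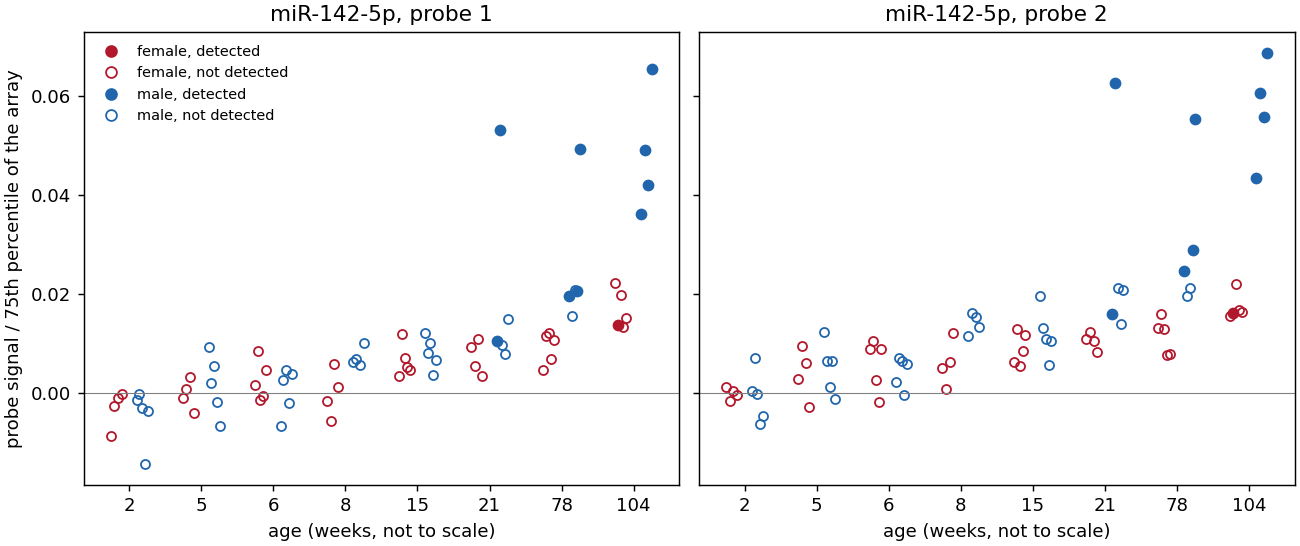
Signal of each of the 2 probes of miR-142-5p divided by the 75th percentile of the array, by age in weeks, with 1 point per animal; filled points are arrays on which the miRNA was detected and open points those on which it was not. Signals lay around 0 at 2 weeks, females of 104 weeks reached 0.0132 to 0.0221 on probe 1 and males of 104 weeks 0.0361 to 0.0654.

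miR-223-3p, known from neutrophils and macrophages, also had its lowest levels at 2 weeks. The 4 females measured 0.686, 0.729, 0.609 and 0.636 and the 5 males 0.516, 0.642, 0.597, 0.5998 and 0.555, and the sexes overlapped. By 5 weeks the females measured 1.12, 1.22, 1.30 and 0.946 and the males 1.28, 1.14, 1.34, 1.32 and 1.31, all above every 2-week animal. This was a gain of 0.78 ± 0.12 in females (adjusted p = 1.38e-07) and of 1.14 ± 0.10 in males (adjusted p = 2.15e-14). Over all miRNAs 8.36% and 12.2% were called as higher at 5 weeks in females and males. The share of all miRNAs free of overlap between these ages was not counted. From 8 to 15 weeks females fell by 0.38 on the log2 scale (SE 0.11, adjusted p = 0.0251), under the fold required for a call and across the change of slides.

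The sexes next separated for miR-223-3p at 21 weeks. The males of that age measured 1.53, 1.25, 1.69, 1.52 and 1.45 and the females 1.07, 1.22, 1.11 and 1.12, with every male above every female. The share of all miRNAs free of such overlap was not counted at 21 weeks. The difference of 0.40 ± 0.11 passed the p threshold (adjusted p = 0.0108) and not the fold, and it was positive on 4 of 4 slides (0.34 to 0.60). The step of the males from 15 to 21 weeks, 0.23 ± 0.10, was not called (adjusted p = 0.182). At 78 weeks the males measured 1.83, 2.04, 1.75, 2.46 and 3.01 and the females 1.40, 1.30, 1.48, 1.504 and 1.15. At 104 weeks the males measured 2.50, 3.72, 2.49 and 2.89 and the females 1.64, 1.43, 1.51, 1.52 and 1.42. The sexes did not overlap at either age.

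The sex difference of miR-223-3p was 0.68 ± 0.10 at 78 weeks (1.60-fold, adjusted p = 1.53e-06) and 0.93 ± 0.11 at 104 weeks (1.90-fold, adjusted p = 3.56e-09). At 78 weeks it fell under the fold threshold without replicate 6 of the males (0.56) and on probe 1 alone (0.47, against 0.82 on probe 2), with both probes on the same side. On shared slides males were higher 5 of 5 times at 78 weeks (0.25 to 1.39) and 4 of 4 times at 104 weeks (0.72 to 1.18). The male steps from 21 to 78 weeks (0.55 ± 0.10, adjusted p = 3.64e-05) and from 78 to 104 weeks (0.40 ± 0.11, adjusted p = 0.0313) each passed the p threshold and not the fold. From 21 to 104 weeks males gained 0.95 ± 0.11 (1.93-fold, called) and females 0.41 ± 0.11 (1.33-fold, adjusted p = 0.011, under the fold). These changes differed by 0.53 ± 0.16 (adjusted p = 0.0106), or by 0.41 without replicate 2 of the 104-week males, which was then not called (adjusted p = 0.0622), and by 0.61 with the percentile over all miRNAs of the array (adjusted p = 0.129).

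miR-150-5p, the lymphocyte strand, did not share the early rise. Its group means lay between 0.9996 and 1.24 from 2 to 21 weeks in both sexes, and 0 of its 10 steps within those ages and 0 of its 6 sex differences there were called. On 5 of the 74 arrays it was itself the 75th percentile, so its spread between arrays is narrowed by the scaling. At 78 weeks the males measured 1.16, 1.22, 1.06, 1.58 and 1.47 and the females 1.23, 1.04, 1.04, 1.24 and 0.905, and the sexes overlapped (0.25 ± 0.10, adjusted p = 0.0673). At 104 weeks the males measured 1.47, 1.69, 1.73 and 1.86 and the females 0.839, 1.12, 0.988, 1.24 and 1.08, with no overlap. That difference of 0.69 ± 0.11 was called (1.61-fold, adjusted p = 1.32e-06), and males were higher on 4 of 4 slides (0.39 to 1.01). It was 0.86 on probe 1 and 0.67 on probe 2.

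In males miR-150-5p gained 0.67 ± 0.11 from 21 to 104 weeks (1.59-fold, adjusted p = 8.21e-07), and in females it changed by 0.01 ± 0.11. These changes differed by 0.66 ± 0.15 (adjusted p = 0.000974). The male gain was spread over both intervals, with 0.28 ± 0.10 from 21 to 78 weeks (adjusted p = 0.0278) and 0.39 ± 0.11 from 78 to 104 weeks (adjusted p = 0.0298), each under the fold for a call. Both the sex difference at 104 weeks (0.51) and the male gain (0.52) were under the fold with the offset of 50.

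miR-150-3p, the opposite strand of the miR-150 hairpin, was not in the list of leukocyte strands and was included by the naming rule. Its group means lay between 0.210 and 0.435, and its largest SD within a group was 0.232, in females of 15 weeks. At 78 weeks the females measured 0.405, 0.344, 0.318, 0.419 and 0.689 and the males 0.192, 0.267, 0.218, 0.208 and 0.321, and the highest male lay above the lowest female. Females were thus higher, the reverse of the other 4 strands, by a difference of -0.82 ± 0.28 (males minus females, adjusted p = 0.0302), in a comparison where 3.22% of all miRNAs were called as higher in females. On the 5 slides females were higher 5 times. The call was lost without replicate 6 of the females (-0.64, adjusted p = 0.132), without replicate 2 of the males (-0.74, adjusted p = 0.0725) or without replicate 5 of the males (-0.77, adjusted p = 0.0631). It was also lost after quantile normalization (-0.61, adjusted p = 0.0991) and with fits separate for each age (adjusted p = 0.0561).

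At 104 weeks miR-150-3p measured 0.171 to 0.239 in females and 0.158 to 0.290 in males, a difference of 0.10 ± 0.29 that was not called. In females it fell by 1.01 on the log2 scale from 78 to 104 weeks (SE 0.28, adjusted p = 0.0211), a step in which 2.25% of all miRNAs were called as lower. This call was lost without replicate 6 of the 78-week females (-0.83, adjusted p = 0.121) or replicate 2 of the 104-week females (-0.94, adjusted p = 0.0553). Within groups miR-150-3p was lower on arrays with a higher 75th percentile (Pearson r = -0.32, permutation p = 0.0195, adjusted p = 0.195; Spearman rho = -0.43, permutation p = 0.00082, adjusted p = 0.0082; n = 74 arrays), and r was still -0.32 without the 2 arrays farthest from the median of miR-150-3p. The part of array brightness in its differences was not tested. For the other 4 strands r with that percentile lay between -0.016 and 0.16.

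**Figure D3:**
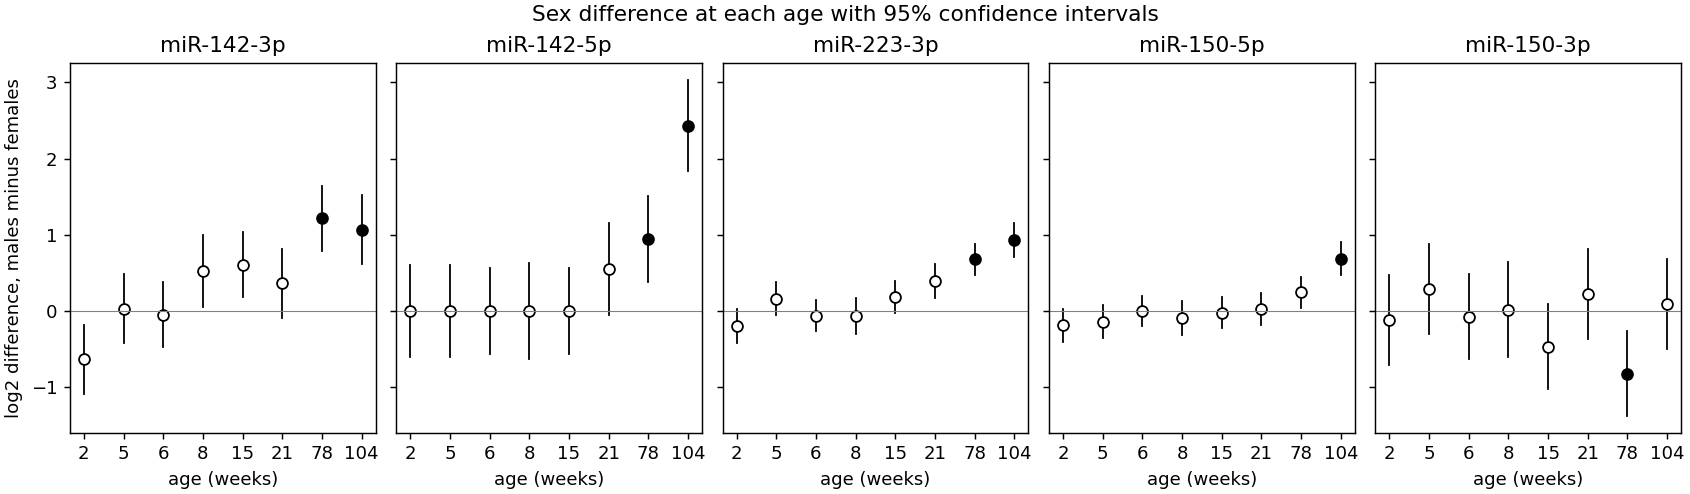
Log2 difference of males minus females for each strand at each age in weeks, with 95% confidence intervals from the fit over all groups; filled points were called. Filled points above 0 appear at 78 weeks for miR-142-3p, miR-142-5p and miR-223-3p and at 104 weeks for these and miR-150-5p, and the only filled point below 0 is miR-150-3p at 78 weeks.

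Over all ages, 8 of the 40 sex differences were called. At 104 weeks 4 of the 5 strands were higher in males, against 3.22% of all miRNAs, and at 78 weeks 3 of 5, against 3.54%. miR-142-5p is among the called strands at both ages. It was detected on 10 of 74 arrays, mostly of males of 21 weeks or older. The detection rule thus let it in mainly through the group where it is high, and its share in these counts is no independent support. At the 6 ages from 2 to 21 weeks 0 of 30 were called, against 2.3% over all miRNAs and those ages. Since no array of 2 to 15 weeks detected miR-142-5p, its differences at those ages were fixed at 0 by the floor and could not be called. With slide as a block 1 sex difference was called at 15 weeks, miR-150-3p with a fixed block (-0.72, adjusted p = 0.0449) and miR-142-3p with a random block (0.62, adjusted p = 0.044). Other settings given above also called miR-142-3p at 2 or at 15 weeks, among them the methods' t-test at 15 weeks. Without a fold threshold miR-223-3p at 21 weeks is added. All males lay above all females for 4 of the 5 strands at 104 weeks (5.14% of all miRNAs) and for 2 at 78 weeks (0.965%). This share was not counted at 2, 15 and 21 weeks, so the lack of overlap described there has no such reference. Of the 70 steps between neighbouring ages, 7 were called: 4 from 2 to 5 weeks, 1 from 21 to 78 weeks and 2 from 78 to 104 weeks. The other 9 steps of the sexes held no call of these strands, against 1.36% over all miRNAs. Steps of miR-142-5p up to 15 weeks in males and up to 78 weeks in females were fixed at 0 by the floor. With slide as a fixed block miR-150-3p in females was called from 15 to 21 weeks (-0.98, adjusted p = 0.0195) and from 21 to 78 weeks (0.86, adjusted p = 0.0147, and 0.0346 with a random block). From 21 to 104 weeks 4 strands rose in males (6.11% of all miRNAs) and 1 in females (0.965%), and the male change exceeded the female change for 3 (5.47%).

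The order of the group means put males of 104 weeks first and males of 78 weeks second for both miR-142 strands, miR-150-5p and miR-223-3p. For miR-142-3p and miR-223-3p the animals of these groups overlapped each other, and 78-week males lay above all animals of the third group, females of 104 weeks. The share of all miRNAs with such a gap was not counted. For miR-150-5p the third group was 5-week females, whose animals overlapped those of 78-week males. The last places were held by males and females of 2 weeks for miR-142-3p and miR-223-3p. For miR-150-3p the first place went to 78-week females, and no neighbouring groups in its order were free of overlap.

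Whether animals of a group that were high for a strand were also high for the others was asked of the deviations of the 74 arrays from their group means, for all 10 pairs. miR-150-5p and miR-223-3p went together (Pearson r = 0.40, permutation p = 0.0031, adjusted p = 0.031; Spearman rho = 0.36, permutation p = 0.00536, adjusted p = 0.0536), and r was 0.46 without the 2 arrays farthest from the median of miR-150-5p. This was r = 0.35 with slide means removed as well, 0.50 within the 38 arrays of 15 to 104 weeks and 0.22 within the 36 arrays of 2 to 8 weeks, and neither age range alone passed the adjusted threshold (adjusted p = 0.0637 and 0.348). Both strands lay near the percentile that served as the divisor.

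miR-142-3p and miR-223-3p had r = 0.28 (permutation p = 0.0432, adjusted p = 0.144; rho = 0.29, permutation p = 0.0274, adjusted p = 0.104), and r = 0.40 with slide means removed (adjusted p = 0.0353). The 2 arms of miR-142 had r = 0.52 (permutation p = 0.0247, adjusted p = 0.124; rho = 0.28, permutation p = 0.0313, adjusted p = 0.104). That relation rests on replicate 2 of the 21-week males and replicate 6 of the 78-week males, without which r was 0.18. With slide means removed as well it was r = 0.47 (adjusted p = 0.0396), and 0.19 without the 2 farthest arrays. miR-142-3p and miR-150-5p had r = 0.01, and the 2 arms of miR-150 r = 0.14 (adjusted p = 0.926 and 0.546). The 21-week male that was highest for both arms of miR-142 was the lowest of its group for miR-223-3p, at 1.25, and for miR-150-5p, at 0.983, whereas the 78-week male that led for miR-142 also led for miR-223-3p, at 3.01.

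**Figure D4:**
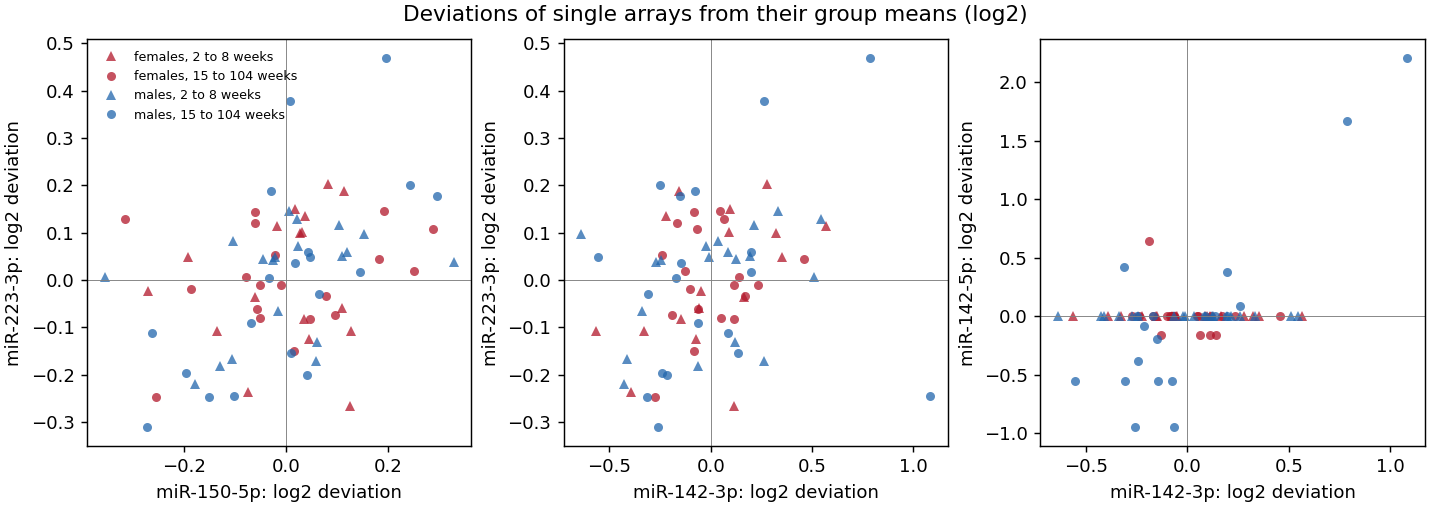
Deviation of each array from its group mean on the log2 scale for 3 pairs of strands, females red and males blue, triangles for 2 to 8 weeks and circles for 15 to 104 weeks. The 2 points at the upper right of the last panel are the 21-week male and the 78-week male that carry the relation of the 2 miR-142 arms, and the cloud of miR-150-5p against miR-223-3p has r = 0.40.

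Among the 207 other miRNAs detected on at least 60 arrays, those whose 16 group means were most like miR-142-3p were miR-34a-5p, miR-146a-5p and miR-21-5p (r = 0.92, 0.92 and 0.91). For miR-223-3p they were miR-146a-5p, miR-34a-5p and miR-7a-5p (r = 0.94, 0.86 and 0.84). For miR-142-5p they were miR-132-3p, miR-146b-5p and miR-21-5p (r = 0.87, 0.85 and 0.77), and for miR-150-5p miR-132-3p, miR-146b-5p and miR-34b-5p (r = 0.86, 0.74 and 0.70). For miR-150-3p they were miR-23a-5p, miR-3561-5p and miR-874-3p (r = 0.91, 0.82 and 0.80). These values describe 16 points that share arrays and scaling. For miR-142-5p every group without a detection had the same floor value. Its r therefore rests on males of 21, 78 and 104 weeks and females of 104 weeks.

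Within groups the nearest miRNAs were others. Over the deviations of 74 arrays they were miR-101a-3p, miR-301a-3p and miR-19b-3p for miR-142-3p (r = 0.75, 0.72 and 0.70) and miR-19b-3p, miR-301a-3p and miR-141-3p for miR-142-5p (r = 0.53, 0.49 and 0.45). For miR-223-3p they were miR-199a-3p, miR-15b-5p and miR-146b-5p (r = 0.73, 0.72 and 0.69), for miR-150-5p miR-99b-5p, miR-125b-5p and miR-532-3p (r = 0.61, 0.56 and 0.46), and for miR-150-3p miR-125a-3p, miR-3562 and miR-202-3p (r = 0.85, 0.76 and 0.72). Deviations of miR-142-5p were 0 in all groups without a detection, so its r rests on the arrays of the groups with one.

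In RNA of ground whole kidney, more cells of a type and more of a miRNA per cell cannot be told apart, so markers of other cells were set beside these strands. In the tubule list, miR-192-5p, miR-194-5p and miR-204-5p were detected on all 74 arrays and the fourth, miR-215, on none. The hepatocyte miRNA miR-122-5p reached 23.6 in 2-week males, whose summed tubule level was 8.14 to 9.40. In males of 5 weeks it lay at 0.0259 to 3.91, and in males of 6 weeks at 0 to 5.82. The highest male lay above every female at each of these ages. Detection of the tubule miRNAs therefore does not show that the tissue was free of other organs, which was not tested. Of the further immune miRNAs, 5 of 7 could be tested, miR-150-3p among them. miR-155-5p was not analysed here and miR-223-5p was never detected. At 104 weeks 1 of the 5, miR-146b-5p, which is induced by inflammatory signalling, was higher in males (0.94 ± 0.14, adjusted p = 4.43e-07), against 3.22% of all miRNAs. miR-146a-5p, a feedback inhibitor of the same signalling, had 0.23 ± 0.08 (adjusted p = 0.0176, under the fold), and miR-342-3p and miR-342-5p had -0.12 and 0.04. At 78 weeks these last had -0.24 and -0.32 (adjusted p = 0.0453 and 0.0494, under the fold), miR-146b-5p had 0.50 (adjusted p = 0.00333, under the fold) and miR-150-3p was the 1 of the 5 that was called, as higher in females. From 21 to 104 weeks in males miR-146b-5p rose by 1.19 ± 0.14, while miR-342-3p had -0.40 ± 0.09 (adjusted p = 0.000585, under the fold), and 0 of the 5 were called in females. The median sex difference at 104 weeks was 0.9987 over the 4 leukocyte strands, 0.10 over the 5 immune miRNAs and -0.02 over all 311. The first median includes miR-142-5p, which met the detection rule mainly through old males.

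Markers of other cells moved too. Of the erythroid list 3 of 4 could be tested, and miR-486-5p was not analysed here. At 78 weeks 2 of the 3 were higher in males, miR-451-5p (0.74 ± 0.19, adjusted p = 0.00346) and miR-144-5p (0.62 ± 0.17, adjusted p = 0.00395), and at 104 weeks 0 were called. Of all miRNAs 3.54% were called as higher in males at 78 weeks. The summed erythroid level was 1.99 to 3.15 in males and 1.30 to 2.12 in females of 78 weeks, and 2.53 to 4.46 and 1.82 to 3.78 at 104 weeks. At 78 weeks miR-144-3p was undetected in both sexes and miR-144-5p in females. From 21 to 104 weeks miR-451-5p rose by 0.88 ± 0.21 in females and by 0.89 ± 0.21 in males. Within groups miR-451-5p had r between -0.26 and 0.22 with the 5 strands, and none of these 5 relations had an adjusted p under 0.05. The part of blood cells in the differences of the leukocyte strands was not tested.

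Of the mesenchymal list, 2 of 4 miRNAs were higher in males at 104 weeks, miR-199a-5p (0.66 ± 0.11) and miR-21-5p (0.59 ± 0.17), and 1 at 78 weeks, miR-21-5p (0.69 ± 0.16). Of all miRNAs 3.22% were called as higher in males at 104 weeks and 3.54% at 78 weeks. The summed mesenchymal level was 57.5 to 105.9 in males and 48.6 to 55.3 in females of 104 weeks, and 47.7 to 130.9 and 40.7 to 48.8 at 78 weeks. All 3 tubule miRNAs that could be tested fell in males from 21 to 104 weeks, miR-192-5p by 0.80, miR-194-5p by 0.78 and miR-204-5p by 0.70 on the log2 scale, and 0 of 3 did in females. Over all miRNAs 27 of 311 were called as lower at 104 weeks in males and 6 of 311 in females. The summed tubule level was 13.3 to 15.98 in males and 21.4 to 23.3 in females of 104 weeks. Neither of the 2 endothelial miRNAs was called in any of these comparisons, nor was the hepatocyte miRNA miR-122-5p (-2.61 ± 1.02 at 104 weeks, adjusted p = 0.0603). The muscle miRNA that could be tested, miR-206-3p, was detected on 17 arrays and fell by 1.09 on the log2 scale in males from 21 to 104 weeks. The part of these cell types in the differences of the leukocyte strands was not tested.

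**Figure D5:**
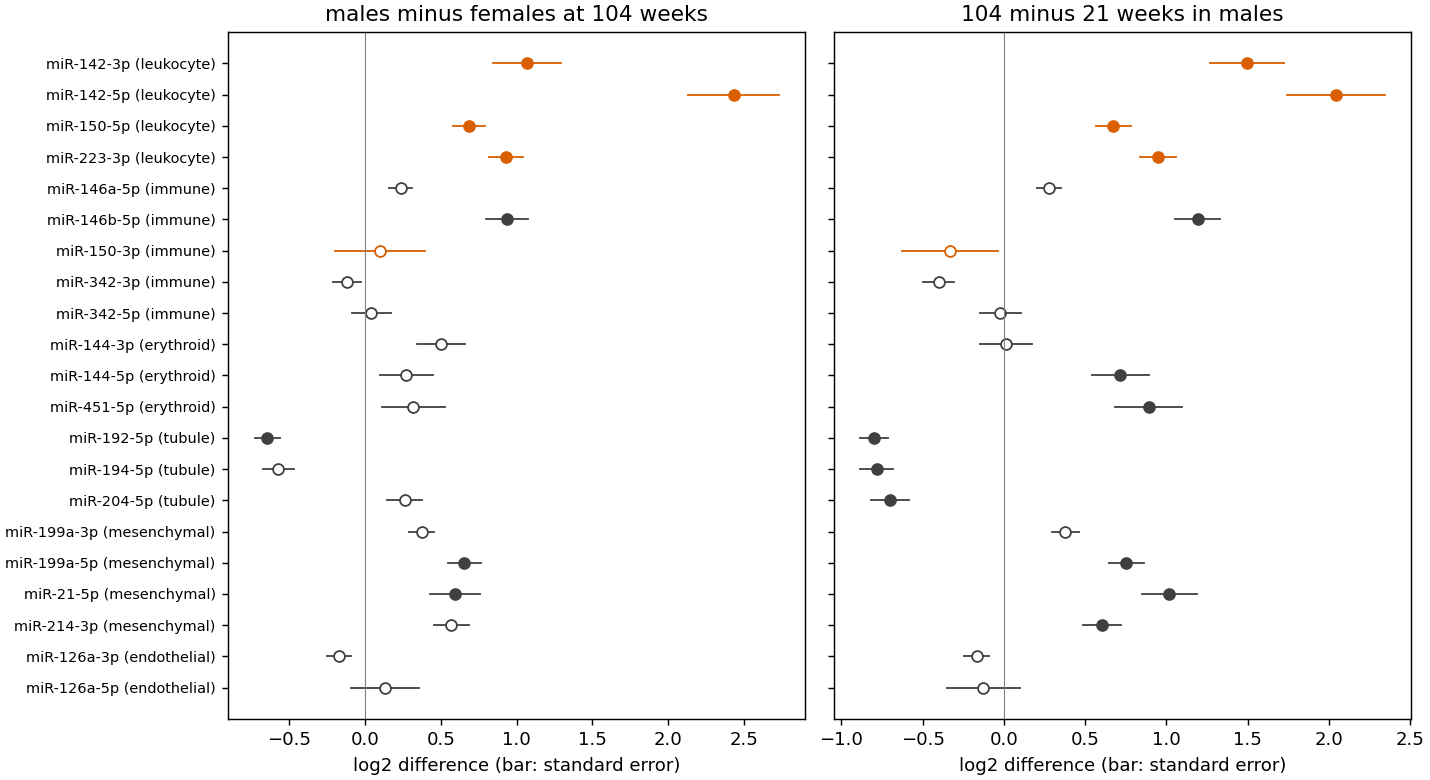
Log2 difference with its standard error for the miRNAs of each marker list, for males minus females at 104 weeks (left) and for 104 minus 21 weeks in males (right); filled points were called, and the 5 strands of miR-142, miR-150 and miR-223 are in orange. The 4 leukocyte strands lie at 0.69 to 2.43 on the left and at 0.67 to 2.04 on the right, and the tubule miRNAs lie below 0 on the right.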

How the data were processed

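The authors deposited, for each of 74 kidneys, the output of Agilent Feature Extraction 10.7.3.1 from an array hybridized with 100 ng of total RNA: background-subtracted intensity values combined over the spots of a miRNA, not normalized between arrays, with undetected miRNAs at 0.1. A table of normalized intensity values, also deposited by the authors, was used only as an alternative grouping. The genome build of the array design is not given in the sources used here.

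Here, total gene signals were divided by each array's 75th percentile over 311 expressed miRNAs, raised to a common floor (0.0171, the lowest detected signal of 1.39 over the smallest percentile) and taken as log2. The number of arrays per group, 4 or 5, limits the precision. limma 3.58.1 in R 4.3.3 was fitted to 16 group means with 58 degrees of freedom, and p-values were adjusted over 311 miRNAs by Benjamini-Hochberg. Age effects were moderated F tests within each sex and also needed a pair of ages with p under 0.05 and a fold of 1.5. The interaction and the difference of changes needed the adjusted p only. In simulated data for the 104-week sex difference, 57 of 60 miRNAs changed by 1.5 (log2) were called, with 1 false call, among 311. The noise was normal and had no floor, and 1.5 exceeds the differences of miR-142-3p (1.07), miR-223-3p (0.93) and miR-150-5p (0.69) at that age. The simulation therefore does not show how often such smaller differences, or those of miR-142-5p at the floor, are called. Correlations of deviations used 100000 permutations of arrays within groups, two-sided, adjusted over 10 pairs.

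Members, marker lists and the rule for naming miRNAs (all members, all list miRNAs, and the 3 nearest to each member by group means and by deviations) were chosen with earlier results of these data known. Alternatives were other floors, percentiles, filters and fold rules, quantile normalization, normexp with an offset of 50, the methods' t-test and ANOVA, separate fits by age, slide or replicate blocks (statmod 1.5.0, estimated slide correlation 0.133), single probes, the table's grouping and leaving out each array. Replicate numbers did not pair the samples: deviations of same-numbered arrays of the 2 sexes correlated at 0.0377 over 28 pairs, and others at -0.00385 over 143.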

Additional observations from a re-analysis of the deposited data

Results flagged for a closer look

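Of 68 groups and strands with any spread, 5 had an animal far from the others. Chance gives about 1 in 20, except for miR-142-5p, where a single animal above the floor is always far from others at it. For miR-142-3p it was the highest 78-week male, replicate 6, at 2.52 against 1.18 to 1.40 in the other 4. For miR-142-5p they were the 21-week male replicate 2, at 0.116, where the other 4 were at or under the floor, and the 104-week female replicate 2, at 0.0299, where the other 4 were undetected. For miR-150-3p it was the highest 5-week female, replicate 6, at 0.262 against 0.216 to 0.221 in the other 3. For miR-223-3p it was the lowest 5-week male, replicate 2, at 1.14 against 1.28 to 1.34 in the other 4.

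The change from 21 to 104 weeks differed between the sexes, as tested by the difference of the changes in limma's fit over all groups, for 3 strands. It was larger in males by 1.88 for miR-142-5p (adjusted p = 0.000864), by 0.66 for miR-150-5p (adjusted p = 0.000974) and by 0.53 for miR-223-3p (adjusted p = 0.0106). The value of miR-142-5p rests on the floor, and its p on a spread pooled with groups whose SD was 0.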

How the results depend on the processing

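The 67 results were recomputed under 19 alternatives, the grouping by the deposited table apart, which gave 777 of 854 values with the same direction and call, and without each array in turn, which gave 4181 of 4218. The normexp correction with an offset of 50 took miR-142-5p to -0.0011 (104-week sex difference), -0.13 (78 weeks), -0.0398 (78 to 104 weeks in males), 0.0063 (21 to 104 weeks in males) and -0.12 (difference of the changes); its probe signals are small beside that offset. It took miR-150-5p to 0.51 (104-week sex difference) and 0.52 (21 to 104 weeks in males), under the fold, and the rise of miR-142-3p from 2 to 5 weeks to 0.11 in females and 0.49 in males, not called. Calls among the 5 strands then numbered 4 sex differences in place of 8, 2 steps in place of 7, 2 age effects in males in place of 4, and 2 changes from 21 to 104 weeks in males and 0 in females in place of 4 and 1. Without a fold threshold there were 12 steps and 2 changes in females; with the percentile over every miRNA on the array 0 changes in females, and without single arrays 0 to 1. The cause was not tested.

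With the table's grouping the 104-week sex difference was 0.70 for miR-142-3p, 0 for miR-142-5p and 0.15 for miR-150-5p, and at 78 weeks it was 0.36 for miR-142-3p, 0.83 for miR-142-5p and 0.20 for miR-223-3p, none called. The change from 21 to 104 weeks in males was -0.49, 0, 0.22 and -0.0060 for miR-142-3p and its 5p strand, miR-150-5p and miR-223-3p, and in females -0.86 for miR-142-3p and -0.62 for miR-223-3p. miR-150-3p at 78 weeks had 0.0080. Calls numbered 4 sex differences, 2 late changes in females and 0 in males. Over all miRNAs the table's grouping called 75 sex differences at 5 weeks and 0 at 2, 15, 21 and 78 weeks. The scanner grouping called 0 at 5 weeks and 12, 11, 15 and 21 at those other ages. Age effects numbered 66 in males and 117 in females with the table's grouping, against 141 and 114. Which grouping is right was not tested. The floor before scaling moved the median of all miRNAs to -0.27 for the late change in males (-0.05 otherwise), and the call it changed was the age effect of miR-150-3p in females (adjusted p = 0.0452).

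With the replicate block the 104-week sex differences were 0.98, 2.34, 0.69 and 0.94 for miR-142-3p and its 5p strand, miR-150-5p and miR-223-3p, and no call of the 5 strands changed. The age effect in males with slide as a fixed block could not be fitted. The lowest detected signal of any miRNA was 1.39, which is not a limit particular to miR-142-5p. Its probe signals reached 4.06 on arrays without detection and went down to 2.27 on arrays with it. Detection of miR-142-5p is therefore not a cut at a single probe signal, which limits its results.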
